A study of Mus musculus with 30 samples.

Results

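The cytosolic ribosomal protein genes, which encode the protein subunits of the ribosome that translates messenger RNA outside mitochondria, were followed in whole B16 melanoma tumors that did or did not secrete an interferon-α (IFNα) subtype. Members were the rows whose mouse symbol is Rpl or Rps followed by a number, with an optional letter and digit, or is Rplp0, Rplp1, Rplp2 or Rpsa, and whose mean over the 30 tumors was at least 10 counts. Of 39676 genes listed, 78 carried such a symbol and 76 reached the minimum. Rpl39l, Rps4l and Rpl29 were nearest to it, with means of 76.6, 76.9 and 96.2 counts, and the other 2, Rpl10l and Rps12l1, had a count of 0 in every tumor. The 76 members comprised 26 genes of the small subunit, 39 of the large subunit, 3 of the acidic stalk (Rplp0, Rplp1 and Rplp2), 4 protein-coding paralogs (Rpl3l, Rpl22l1, Rpl39l and Rps27l) and 4 genes annotated as pseudogenes (Rpl32l, Rps3a2, Rps3a3 and Rps4l), here called retrocopies. The 68 genes of the first 3 classes are called core members. Rpl8, Rpl17, Rpl36, Rpl37, Rps7, Rps12, Rps23, Rps24 and Rps26 were not analysed here.

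The 3 groups were 10 GFP tumors (B16.GFP.gB.luc cells), 10 IFNα4 tumors (B16.IFNα4.gB.luc cells) and 10 IFNα9 tumors (B16.IFNα9.gB.luc cells), harvested on day 8 after subcutaneous engraftment in female C57BL/6 mice, which by the study's methods were typically young adults. B16 is a mouse melanoma line, and the cells of all 3 groups had been given herpes simplex virus glycoprotein B (gB) and firefly luciferase (luc) by retrovirus. In the IFNα groups a retroviral long terminal repeat drove murine IFNα4 or IFNα9 together with enhanced green fluorescent protein, and the GFP group carried the vector without an IFNα, so cytokine came from the engrafted cells and from whatever the host added. The tumors hold melanoma cells and the host cells that entered or surround them.

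A ribosome has a small subunit, which decodes the message, and a large subunit, which forms peptide bonds, and each contains ribosomal RNA and many proteins that are made in matching amounts. The messenger RNAs of most ribosomal proteins start with an unbroken run of pyrimidines (C or T), the 5′ terminal oligopyrimidine or TOP motif, through which the kinase mTOR and the RNA-binding protein Larp1 control their translation. In tumors these genes are known to follow growth and the transcription factor Myc.

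The start sites of 8 members are shown because they carry this signature or lack it. They include core members with large and small changes and the paralogs Rpl3l and Rpl39l, whose counterparts Rpl3 and Rpl39 are not shown. Each is 65 bases of the RefSeq annotation of GRCm38.p6, written 5′ to 3′ on the gene's strand, with 40 bases before and 25 from the annotated start, and the longest run of C or T in the window is in capitals.
Rpl13a (chr7:45128721-45128785, - strand): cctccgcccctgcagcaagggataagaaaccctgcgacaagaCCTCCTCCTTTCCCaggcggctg
Rplp2 (chr7:141447611-141447675, + strand): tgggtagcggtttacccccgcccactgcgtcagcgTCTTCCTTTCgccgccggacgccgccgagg
Rpl28 (chr7:4792925-4792989, + strand): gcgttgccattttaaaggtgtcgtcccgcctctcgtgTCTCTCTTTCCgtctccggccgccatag
Rpl15 (chr14:18270962-18271026, - strand): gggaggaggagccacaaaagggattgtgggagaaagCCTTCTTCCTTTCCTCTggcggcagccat
Rps6 (chr4:86857343-86857407, - strand): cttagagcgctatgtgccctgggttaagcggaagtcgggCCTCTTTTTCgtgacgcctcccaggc
Rpl4 (chr9:64173347-64173411, + strand): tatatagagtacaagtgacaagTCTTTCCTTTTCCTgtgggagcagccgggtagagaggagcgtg
Rpl3l (chr17:24727786-24727850, + strand): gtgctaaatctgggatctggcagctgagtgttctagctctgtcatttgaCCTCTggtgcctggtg
Rpl39l (chr16:10170188-10170252, + strand): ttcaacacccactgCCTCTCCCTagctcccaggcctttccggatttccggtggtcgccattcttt
Among the core members, 51 had a RefSeq promoter entry of 300 bases (250 before and 50 from the start). A run of at least 8 C or T bases touched the 20 bases around the start in 24 of the 51 (47.1%), against 15.8% of all 27025 genes with such an entry. The letters CCGGAAG, a site type of ETS factors, occurred on either strand in 41.2% of these members and 9.93% of all genes, and CTCTTTC in 31.4% and 9.28%. CACGTG, the E-box that Myc can bind, occurred in 11.8% and 8.09%. A repeat of GAAA after a gap of 2 bases, which resembles the interferon-stimulated response element, occurred in 9.80% and 3.99%. The motifs may overlap one another, and a match describes letters and not binding. The 14-base run of Rpl13a and the 14-base run of Rpl4 belonged to genes at opposite ends of the range of change, while the longest run near the start of Rpl3l had 5 bases.

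The libraries held 14598517 to 19788383 counts. The Ifna4 gene had 81 to 188 counts in the IFNα4 tumors and the Ifna9 gene 55 to 148 in the IFNα9 tumors, with 0 in the other groups, so each library matched its label. GFP tumor 7 stood apart: it had the highest ribosomal protein, melanocyte gene and proliferation gene levels of the GFP group and the lowest leukocyte gene level, and results are also given without it. Reads of 50 bases cannot always be placed among these genes and their many processed pseudogenes. Of the 50-base stretches in the protein-coding transcripts of the core members, untranslated regions included, a median of 34.8% also occurred in a transcript of another annotated gene (range 0 to 85.5%), so the level of a single member is uncertain where the authors' counting split or dropped such reads. In whole tumors, fewer cells of a type and less RNA per cell cannot be told apart.

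Ribosomal protein genes made up a smaller part of the library in both IFNα groups. Their summed counts were 2.76 to 5.65% of all counts in the GFP tumors (median 3.21%, mean 3.61% ± 0.856 SD, n = 10). In the IFNα4 tumors they were 2.00 to 2.59% (median 2.33%, 2.31% ± 0.184). In the IFNα9 tumors they were 2.28 to 3.08% (median 2.48%, 2.54% ± 0.230). Every IFNα4 tumor lay below every GFP tumor, and among the IFNα9 tumors 1, tumor 5, lay above the lowest GFP tumor. Without GFP tumor 7 the GFP mean was 3.39% ± 0.497 (n = 9). A share of the library depends on everything else in it, so the following values are scaled by TMM, which assumes that most genes do not change, and given as CPM, the usual scaling of counts to a common library size.

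**Figure D1:**
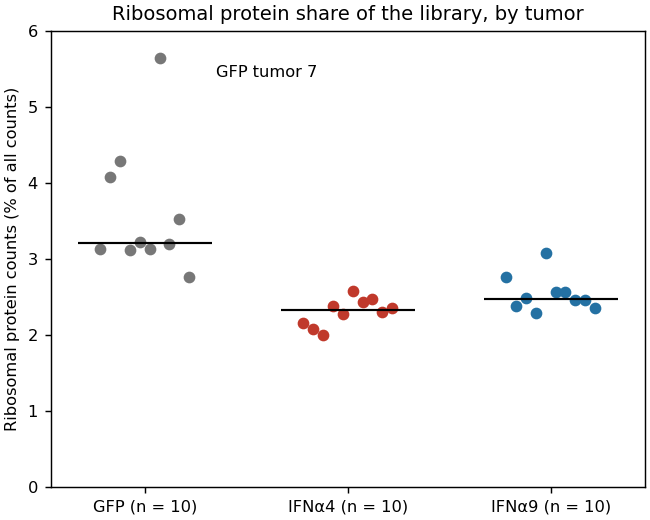
Share of all counts that fell on the 76 ribosomal protein genes (percent, vertical axis) in each of the 10 GFP, 10 IFNα4 and 10 IFNα9 tumors; points are tumors and lines are medians. The IFNα4 tumors sit between 2.00 and 2.59% and the GFP tumors between 2.76 and 5.65%, with GFP tumor 7 the highest.

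In IFNα4 tumors, 71 of the 76 members were called lower than in GFP tumors and 1 was called higher. Calls are at an adjusted p under 0.05 in edgeR's quasi-likelihood test, one fit of all 30 tumors, with Benjamini-Hochberg adjustment over 15926 genes. Of all genes tested, 34.1% were called lower and 31.3% higher in this comparison. All 68 core members were called lower, with a median log2 fold change of -0.83 (a fold of 0.563), beside 0.01 over all genes tested. Without GFP tumor 7 all 68 remained called lower, and the median was -0.63. In 32 of the 68, every IFNα4 tumor was below every GFP tumor, which was true of 10% of all genes. Transcripts of ribosomal proteins are short. The 38 core members with transcripts from 400 to under 800 bases had a median of -0.84, and the 1300 other coding genes of that length had one of -0.17.

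All 26 genes of the small subunit were called lower in IFNα4 tumors (median -0.82, range -1.2 to -0.48). Rps15, which sits near the decoding site of the small subunit, measured 189.7 to 1175 CPM (median 489.9) in GFP tumors, 112 to 356 CPM (median 233) in IFNα4 tumors and 157 to 397 CPM (median 230.4) in IFNα9 tumors. Against GFP, the IFNα4 tumors thus had a log2 fold change of -1.2 ± 0.24 (SE, edgeR adjusted p = 6.86e-05). The ranges overlapped, since the highest IFNα4 tumor, number 6, was above the lowest GFP tumor, number 10. Rpsa, also known as a laminin receptor, ran at 611 to 2030.3 CPM (median 893) in GFP tumors, 347 to 626 CPM (median 477) in IFNα4 tumors and 474 to 758 CPM (median 539.6) in IFNα9 tumors. The log2 fold change in IFNα4 tumors was -1.10 ± 0.16 (SE, edgeR adjusted p = 9.43e-07). Here the groups overlapped through GFP tumor 10 and IFNα4 tumor 6.

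Several abundant genes of the small subunit changed less. Rps6, the substrate of S6 kinase downstream of mTOR, had 936 to 2301 CPM (median 1109.7) in GFP tumors, 786 to 926 CPM (median 825) in IFNα4 tumors and 883 to 1094 CPM (median 976) in IFNα9 tumors. Against GFP, the IFNα4 tumors thus had a log2 fold change of -0.56 ± 0.11 (SE, edgeR adjusted p = 6.61e-05). Every IFNα4 tumor was below every GFP tumor, and the fold change was -0.39 without GFP tumor 7. Rps3, which also acts in DNA repair, was found at 621 to 1355 CPM (median 758) in GFP tumors, 436 to 601 CPM (median 531) in IFNα4 tumors and 501 to 643 CPM (median 568) in IFNα9 tumors. The log2 fold change in IFNα4 tumors was -0.68 ± 0.10 (SE, edgeR adjusted p = 1.77e-06). Rps25, needed for initiation at some internal ribosome entry sites, stood at 553 to 1223 CPM (median 607) in GFP tumors, 394 to 443 CPM (median 425) in IFNα4 tumors and 401 to 517 CPM (median 472) in IFNα9 tumors. Against GFP, the IFNα4 tumors thus had a log2 fold change of -0.70 ± 0.10 (SE, edgeR adjusted p = 1.02e-06). In both genes the IFNα4 tumors lay wholly below the GFP tumors. Rps19, which is mutated in Diamond-Blackfan anemia, changed by -0.82, and Rps27a, made as a fusion with ubiquitin, by -0.81 on the log2 scale. Rps27 had the smallest fall of the subunit, -0.48 on the log2 scale (edgeR adjusted p = 0.0018), which was -0.29 without GFP tumor 7.

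The stalk proteins form the arm of the large subunit that recruits elongation factors, and all 3 genes fell. Rplp1 had the lowest fitted log2 fold change of the core members in IFNα4 tumors, by less than its error from Rpl13a, and without GFP tumor 7 Rpl13a was lower (-1.16 against -1.15). Rplp1 measured 139 to 921 CPM (median 369.7) in GFP tumors, 88.4 to 313 CPM (median 162) in IFNα4 tumors and 99.5 to 342 CPM (median 152) in IFNα9 tumors. The log2 fold change in IFNα4 tumors was -1.36 ± 0.28 (SE, edgeR adjusted p = 0.000113). GFP tumor 10 lay within the range of the IFNα4 tumors, so the groups overlapped. Rplp2, the partner of Rplp1, ran at 88.8 to 289.6 CPM (median 162) in GFP tumors, 52.9 to 125 CPM (median 86.3) in IFNα4 tumors and 50.4 to 141 CPM (median 77.0) in IFNα9 tumors. Against GFP, the IFNα4 tumors thus had a log2 fold change of -0.98 ± 0.21 (SE, edgeR adjusted p = 0.000156). Rplp0 anchors the pair on the ribosome and had 609.7 to 1874 CPM (median 1109.8) in GFP tumors, 410.0 to 940.3 CPM (median 642) in IFNα4 tumors and 487 to 959 CPM (median 649) in IFNα9 tumors. The log2 fold change in IFNα4 tumors was -0.85 ± 0.16 (SE, edgeR adjusted p = 5.26e-05). None of the 3 stalk genes separated the groups completely.

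All 39 genes of the large subunit were called lower in IFNα4 tumors (median -0.78, range -1.35 to -0.40), and 21 of them had no overlap between the groups. Rpl13a, known for a role outside the ribosome in silencing inflammatory transcripts after interferon-γ, was found at 61.3 to 187 CPM (median 83.3) in GFP tumors, 34.2 to 41.0 CPM (median 36.1) in IFNα4 tumors and 40.3 to 59.2 CPM (median 50.0) in IFNα9 tumors. Against GFP, the IFNα4 tumors thus had a log2 fold change of -1.35 ± 0.13 (SE, edgeR adjusted p = 4.72e-10). It had the smallest p of the members, the groups lay apart, and the IFNα4 tumors lay close together. Rpl41, the shortest protein of the ribosome, stood at 239 to 1403 CPM (median 542) in GFP tumors, 156 to 434 CPM (median 272) in IFNα4 tumors and 205 to 518 CPM (median 293) in IFNα9 tumors. The log2 fold change in IFNα4 tumors was -1.22 ± 0.23 (SE, edgeR adjusted p = 3.31e-05). Rpl29 had few counts and measured 3.54 to 17.2 CPM (median 8.79) in GFP tumors, 1.28 to 7.32 CPM (median 3.63) in IFNα4 tumors and 1.54 to 7.10 CPM (median 3.61) in IFNα9 tumors. Against GFP, the IFNα4 tumors thus had a log2 fold change of -1.27 ± 0.28 (SE, edgeR adjusted p = 0.000223). In both genes the GFP and IFNα4 tumors overlapped.

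At the other end, Rpl4, a protein that lines the peptide exit tunnel, ran at 1433 to 1982 CPM (median 1565) in GFP tumors, 1184 to 1303 CPM (median 1225) in IFNα4 tumors and 1297 to 1516 CPM (median 1453) in IFNα9 tumors. The log2 fold change in IFNα4 tumors was -0.40 ± 0.06 (SE, edgeR adjusted p = 8.35e-07). The change was small, but no IFNα4 tumor reached the lowest GFP tumor. Rpl5 and Rpl11 form with 5S ribosomal RNA the particle that binds Mdm2. Rpl5 changed by -0.42 (edgeR adjusted p = 0.000177) and Rpl11 by -0.66 (edgeR adjusted p = 1.28e-05) on the log2 scale. Rpl36a changed by -0.41 and Rpl38, linked to the translation of Hox messages, by -0.86 on the same scale. Levels of Rpl5, Rpl11 and Rpl36a overlapped between the groups, whereas Rpl38 did not.

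**Figure D2:**
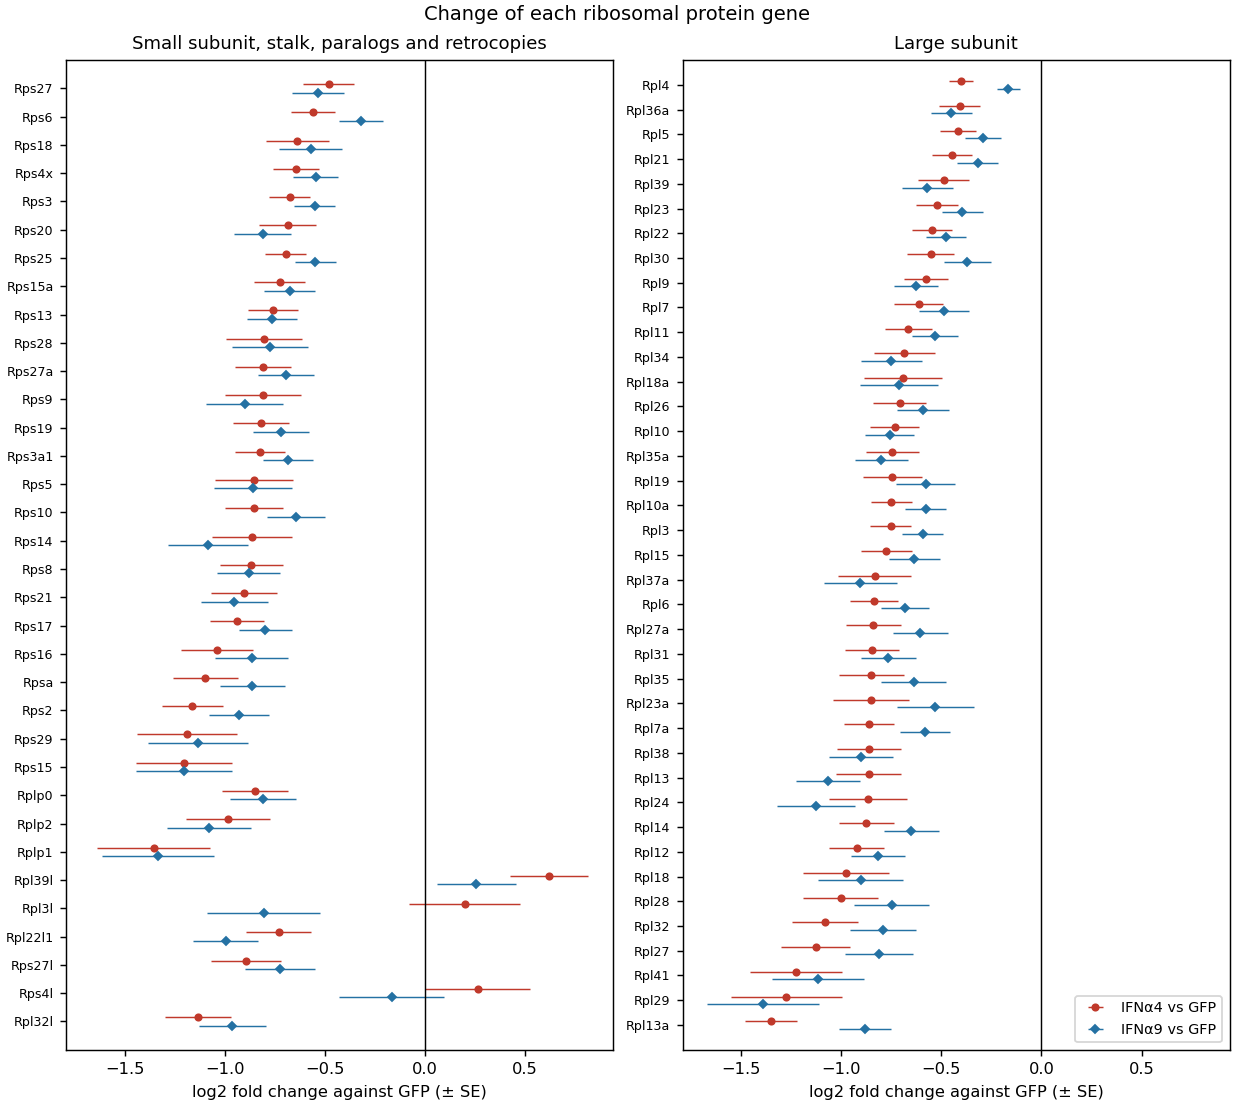
Log2 fold change against GFP tumors (horizontal axis, points with standard errors) of 73 ribosomal protein genes in IFNα4 (circles) and IFNα9 tumors (diamonds), by class. All 67 core members drawn lie left of 0 in both comparisons, and Rpl39l lies right of it; Rps3a2 and Rps3a3 are left out because 1 tumor sets their values.

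The IFNα9 tumors showed a fall of nearly the same size. Of the 76 members, 72 were called lower and 2 higher than in GFP tumors, where 28.9% of all genes were called lower and 26.9% higher. All 68 core members were called lower, with a median log2 fold change of -0.73 beside -0.00 over all genes tested, and 67 were called without GFP tumor 7 (median -0.55), the exception being Rpl23a (-0.37, edgeR adjusted p = 0.0664). The groups did not overlap for 16 core members, against 3.35% of all genes. This comparison uses the same GFP tumors as the one before, so agreement between them is no independent support.

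By class, the median log2 fold change in IFNα9 tumors was -0.79 for the 26 small subunit genes, -0.64 for the 39 large subunit genes and -1.08 for the 3 stalk genes. The 5 members with the largest falls were Rpl29 (-1.39), Rplp1 (-1.33), Rps15 (-1.2), Rps29 (-1.13) and Rpl24 (-1.13). For Rpl29 the levels already given overlapped, and edgeR's adjusted p was 0.000126. Rpl24, which bridges the subunits, had 36.0 to 147 CPM (median 66.2) in GFP tumors, 23.9 to 55.1 CPM (median 46.6) in IFNα4 tumors and 24.5 to 53.7 CPM (median 33.7) in IFNα9 tumors. Its log2 fold change was -0.87 in IFNα4 tumors, and the difference between the IFNα groups was not called (edgeR adjusted p = 0.385). Rpl13a changed by -0.88 ± 0.13 (SE, edgeR adjusted p = 2.05e-06), and Rps6 by -0.32 ± 0.11 (SE, edgeR adjusted p = 0.0145). Rps6 overlapped with the GFP tumors, and without GFP tumor 7 its change was -0.17 (edgeR adjusted p = 0.0354). Rpl21 changed by -0.32 (-0.19 without GFP tumor 7) and Rpl5 by -0.29 (-0.19 without it). The smallest change was that of Rpl4, -0.17 ± 0.06 (SE, edgeR adjusted p = 0.0179). It was -0.12 without GFP tumor 7, and scaled by library totals it was -0.06 and no longer called.

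Between the IFNα groups few members differed. Relative to IFNα4 tumors, 4 members were called higher and 1 lower in IFNα9 tumors, where 10.5% of all genes were called higher and 7.25% lower. Rps3a2 and Rps3a3, called through 1 tumor, are described below. Among the 68 core members 2 were called, and the median log2 difference was 0.10, with 47 above 0. Over all 76 members the median was also 0.10. It was 0.06 without members that share over 20% of the 50-base stretches of all their transcripts, and 0.13 with edgeR's own filter. These were the lowest and highest of the alternatives other than leaving out a tumor. Rpl13a was 0.47 ± 0.13 on the log2 scale (SE, edgeR adjusted p = 0.0115), and its ranges met at 40.3 to 41.0 CPM. Rpl4 was 0.24 ± 0.06 on the log2 scale (SE, edgeR adjusted p = 0.00488), and the groups overlapped only through IFNα9 tumor 2 at 1297 CPM, below IFNα4 tumor 1 at 1303 CPM. Rpl32, which misses the threshold (log2 difference 0.29, edgeR adjusted p = 0.231), was nevertheless the 1 core member whose IFNα groups did not overlap, singled out here after its values were seen, with IFNα4 tumors up to 557 CPM and IFNα9 tumors from 571 CPM, a separation that 2.08% of all genes showed. Both core calls were lost when a change of at least 1.2-fold was asked for (edgeR adjusted p = 0.163 for Rpl13a and 0.926 for Rpl4). Without GFP tumor 7, which is in neither group, 10 members were called higher, and in a fit of the 20 IFNα tumors alone 13 were. The count over all 15926 genes rose too, from 1679 in the fit of all 30 tumors to 2043 and 2363.

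**Figure D3:**
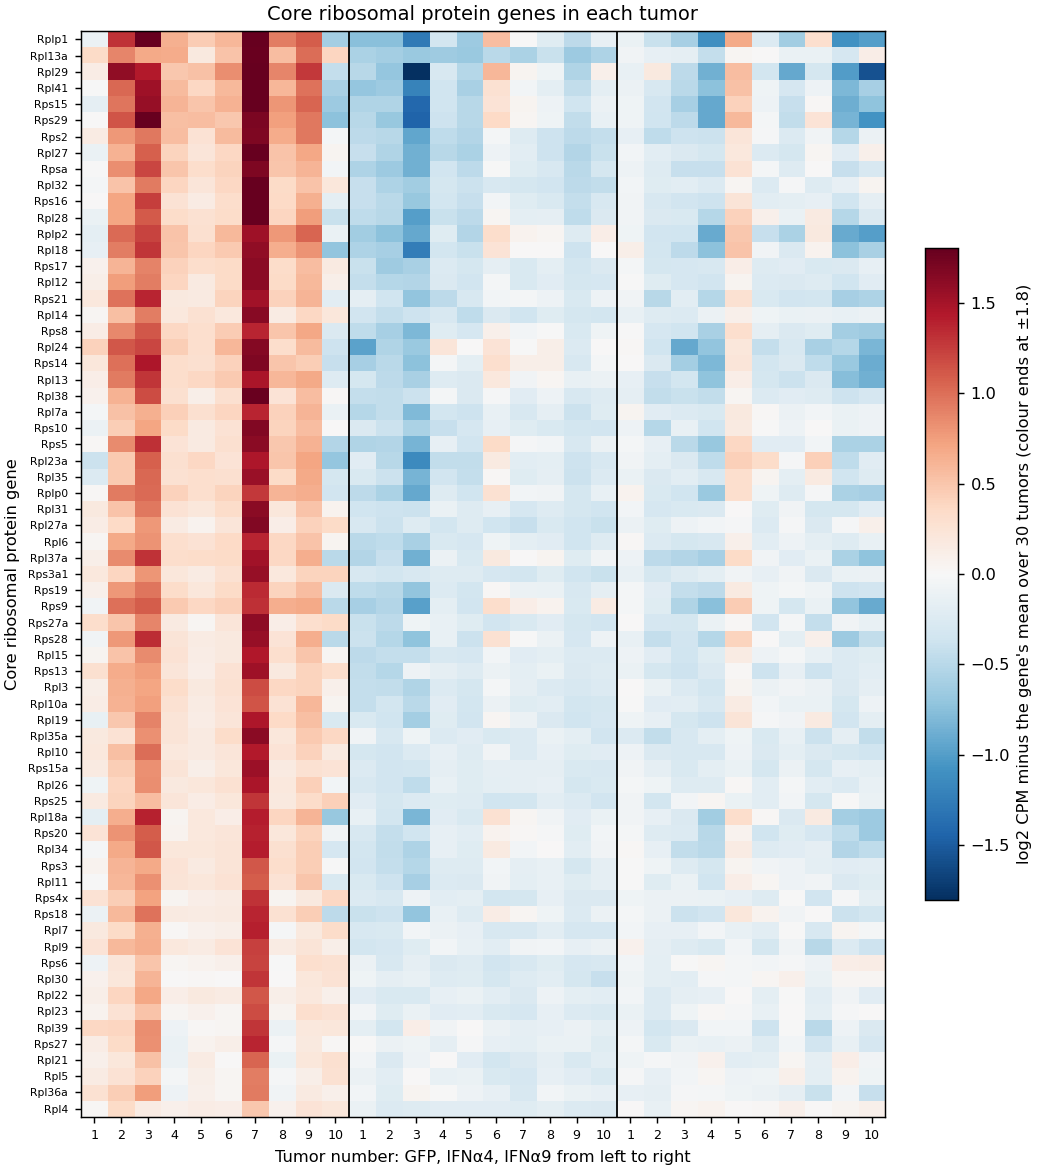
Level of 67 core members (rows, ordered by change in IFNα4 tumors, with the largest fall at the top) in the 30 tumors (columns), as log2 CPM minus each gene's mean over all tumors. GFP tumor 7 is the highest GFP tumor in 66 of the 67 rows, and IFNα4 tumor 3 is the lowest of its group in 39.

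Some core members varied far more than others between the tumors of a group. GFP tumor 7 had the highest GFP level for 67 of the 68, IFNα4 tumor 6 the highest IFNα4 level for 42 and IFNα9 tumor 5 the highest IFNα9 level for 49. The lowest levels fell in GFP tumor 10 for 39 and in IFNα4 tumor 3 for 39, but IFNα4 tumor 3 was also the highest of its group for 8. In the IFNα9 group the lowest levels were scattered, with 14 in tumor 4, 13 in tumor 9, 12 in tumor 10 and 10 each in tumors 2 and 8. The coefficient of variation (CV, the SD as a percentage of the mean) over 10 tumors had a median of 39.6% in the GFP group (22.4% without tumor 7), 10.4% in the IFNα4 group and 11% in the IFNα9 group. In the IFNα4 group it ran from 2.81% for Rpl4 to 40.4% for Rpl29. It was over 25% for 9 genes there, Rpl18, Rpl24, Rpl29, Rpl41, Rplp1, Rplp2, Rps9, Rps15 and Rps29, and in the IFNα9 group for these 9 and Rps14. Rplp1, for example, went from 88.4 CPM in IFNα4 tumor 3 to 313 CPM in IFNα4 tumor 6, while Rps3a1 stayed between 829 and 933 CPM over that group.

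Both the size of the fall and the spread were correlated with the base composition of the transcripts. Across the 68 core members, the log2 fold change in IFNα4 tumors had a Spearman rho of -0.54 with GC content (Pearson r = -0.53), and that in IFNα9 tumors -0.49 (r = -0.49). For 12715 other protein-coding genes the rho values were -0.06 and -0.16. The CV had a rho with GC of 0.35 in GFP, 0.63 in IFNα4 and 0.61 in IFNα9 tumors, and one with transcript length of -0.38, -0.27 and -0.37. The 22 members with the lowest GC, 41.3 to 50.0%, had a median log2 fold change of -0.68 in IFNα4 tumors and a median CV of 6.61% there, and the 22 with the highest, 54.8 to 60.1%, had -0.86 and 18.3%. Transcript length had a rho of 0.22 with the IFNα4 change and 0.32 with the IFNα9 change, and the share of sequence held in common with other genes had -0.11 and 0.08. These correlations are across genes of the same libraries, which share depth and library preparation and are not independent, and no p is attached. Why GC content moves with the change was not tested.

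**Figure D4:**
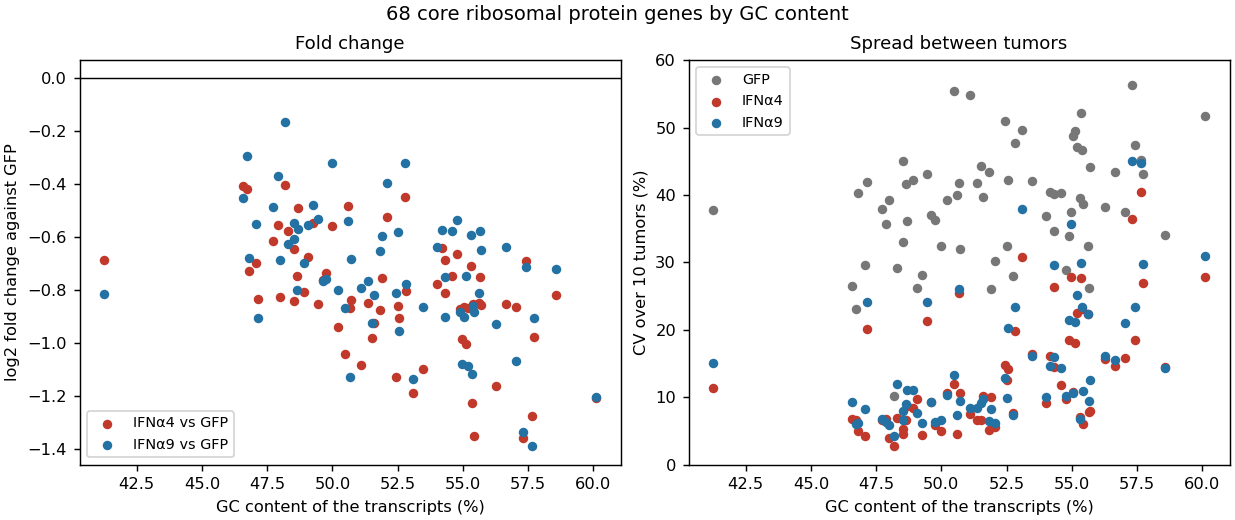
Left, log2 fold change against GFP tumors; right, coefficient of variation over 10 tumors in percent; both against the GC content of the transcripts (percent) for 68 core members, 1 point per gene and group. Genes with more GC lie lower on the left, and on the right the IFNα4 and IFNα9 points rise while the GFP points are high over most of the range.

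Per kilobase of transcript, the core members differed widely in level. In GFP tumors the mean ran from 15 CPM per kilobase for Rpl29 to 1609 for Rps3a1, with a median of 660 over the 68. In the IFNα4 group the median was 365, in the IFNα9 group 386, and Rps6 was the highest in both, at 955 ± 47.4 and 1126 ± 74.0 (SD, n = 10). Rps3a1 and Rpl26 followed, and in IFNα4 tumors Rps3a1 at 908 ± 36.3 was within the combined spread of Rps6. In GFP tumors Rps3a1 (1609 ± 633) and Rpl32 (1516 ± 831) did not differ beyond their spread. Lengths are medians over annotated transcripts, and reads shared with pseudogenes bear on the low values as well as the high ones.

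The paralogs did not all follow the core. Rps27l, a p53 target close to Rps27, measured 83.9 to 342 CPM (median 111) in GFP tumors, 60.6 to 81.4 CPM (median 69.9) in IFNα4 tumors and 57.3 to 90.2 CPM (median 82.5) in IFNα9 tumors. For IFNα4 tumors the fit gave a log2 fold change of -0.89 ± 0.18 (SE, edgeR adjusted p = 6.49e-05). In IFNα9 tumors it changed by -0.72 ± 0.18 (SE, edgeR adjusted p = 0.00092), and without GFP tumor 7 the values were -0.59 and -0.44. Its counterpart Rps27 changed by -0.48 and -0.54 (-0.29 and -0.36 without GFP tumor 7), and the difference between the paralogs was not tested. Rpl22l1, which can replace Rpl22 in the ribosome, ran at 27.5 to 75.4 CPM (median 36.2) in GFP tumors, 17.4 to 35.2 CPM (median 25.7) in IFNα4 tumors and 13.7 to 27.0 CPM (median 22.8) in IFNα9 tumors. In IFNα4 tumors this came to a log2 fold change of -0.73 ± 0.16 (SE, edgeR adjusted p = 0.000248). In IFNα9 tumors its change was -1.0 ± 0.16 (SE, edgeR adjusted p = 8.74e-06), with no overlap between the groups, and that of Rpl22 was -0.48.

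Rpl39l, a paralog of Rpl39 best known from testis, was the 1 member called higher in IFNα4 tumors. It had 1.52 to 6.70 CPM (median 3.49) in GFP tumors, 3.26 to 7.64 CPM (median 5.49) in IFNα4 tumors and 2.77 to 6.08 CPM (median 4.20) in IFNα9 tumors. For IFNα4 tumors the fit gave a log2 fold change of 0.62 ± 0.20 (SE, edgeR adjusted p = 0.00681). In IFNα9 tumors the log2 fold change was 0.26 and not called (edgeR adjusted p = 0.272), and the difference between the IFNα groups was not called either (edgeR adjusted p = 0.206). Rpl39 itself changed by -0.49 and -0.57, the first of which was -0.32 without GFP tumor 7. GFP tumor 7, the highest for Rpl39, was the lowest for Rpl39l. None of the 50-base stretches of Rpl39l occurs in another annotated transcript, so these reads are its own, but they are few.

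Rpl3l replaces Rpl3 in skeletal and cardiac muscle, and its level moved with muscle genes from tumor to tumor. It was found at 12.0 to 55.1 CPM (median 18.5) in GFP tumors, 13.8 to 44.7 CPM (median 27.0) in IFNα4 tumors and 5.66 to 34.7 CPM (median 12.9) in IFNα9 tumors. In IFNα4 tumors it was not called (log2 fold change 0.20, edgeR adjusted p = 0.54), nor without GFP tumor 3 (0.41, edgeR adjusted p = 0.174). In IFNα9 tumors it was -0.81 ± 0.28 (SE, edgeR adjusted p = 0.0165) against GFP, a call lost without GFP tumor 3 (-0.59, edgeR adjusted p = 0.0595), and -1.0 ± 0.28 on the log2 scale (SE, edgeR adjusted p = 0.0126) against IFNα4. Summed over 7 muscle genes (Acta1, Actn3, Ckm, Myh4, Myl1, Mylpf and Tnnt3), expression was 3408 to 17219 CPM in GFP, 4088 to 14795 in IFNα4 and 1688 to 12524 in IFNα9 tumors. Of the 7, 0 were called in IFNα4 tumors, 5 were called lower in IFNα9 than in GFP tumors and 6 lower in IFNα9 than in IFNα4 tumors. GFP tumor 3, IFNα4 tumor 4 and IFNα4 tumor 8 were the top 3 of 30 for both the muscle sum and Rpl3l, and IFNα9 tumors 6, 3 and 10 came last for both. Rpl3, the counterpart used elsewhere, changed by -0.75 in IFNα4 and -0.59 in IFNα9 tumors. The part of muscle in the Rpl3l values was not tested.

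**Figure D5:**
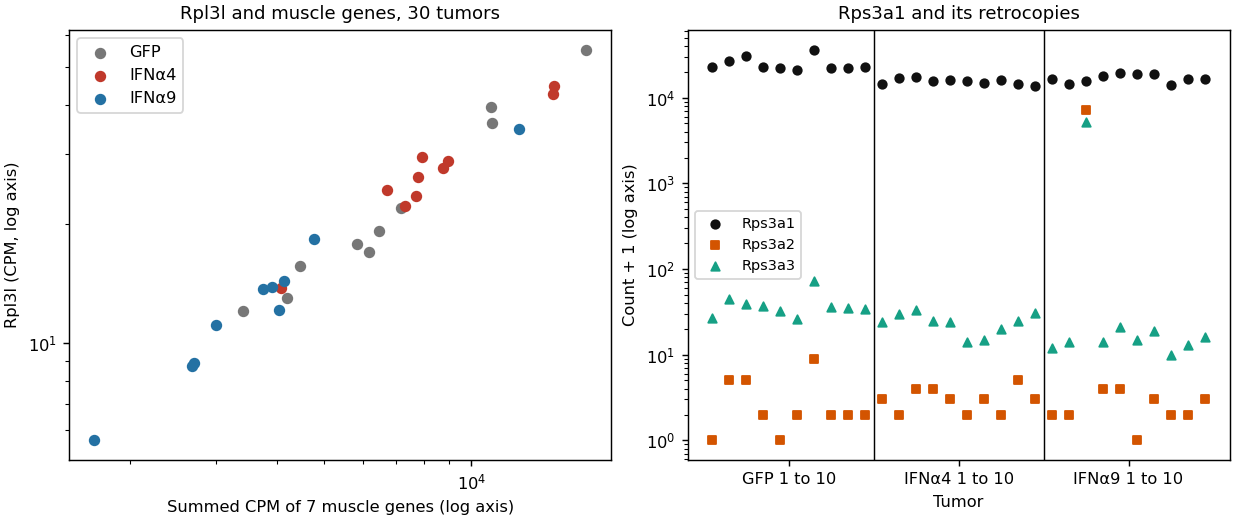
Left, Rpl3l (CPM) against the summed CPM of 7 muscle genes in 30 tumors, both on log axes, coloured by group; right, counts plus 1 (log axis) of Rps3a1 and the retrocopies Rps3a2 and Rps3a3 in each tumor. Rpl3l follows the muscle sum in all 3 groups, and both retrocopies are high in IFNα9 tumor 3 alone.

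Among the retrocopies, intronless copies inserted from reverse-transcribed messages, Rps3a2 and Rps3a3 were called higher in IFNα9 tumors because of 1 library. Rps3a2 had 7243 counts in IFNα9 tumor 3 and 0 to 8 in the other 29 tumors. Rps3a3 had 5196 counts in that tumor and 9 to 71 in the others. Their parent Rps3a1 had 15849 counts there, within the 14000 to 19442 of the other IFNα9 tumors. Without IFNα9 tumor 3 the log2 fold changes against GFP, fitted as 8.28 and 3.72, became -0.53 (edgeR adjusted p = 0.449) and -1.56 (edgeR adjusted p = 4.49e-06), and against IFNα4 the fitted 8.39 and 4.56 became -0.39 and -0.71. Rps3a2 reached the minimum of 10 counts through this tumor. The transcripts of the copies are nearly those of the parent, with 4 differences over 792 aligned bases for Rps3a2 and 9 over 795 for Rps3a3. The 60 bases in which the copies and the parent differ most are shown from the GENCODE M21 transcripts, in capitals where the 3 are not the same.
Rps3a1 (transcript bases 334 to 393): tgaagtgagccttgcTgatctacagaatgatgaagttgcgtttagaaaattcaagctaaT
Rps3a2 (chr14:88123549-88123608, - strand): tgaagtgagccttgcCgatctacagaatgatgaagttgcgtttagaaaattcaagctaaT
Rps3a3 (chr13:108670803-108670862, + strand): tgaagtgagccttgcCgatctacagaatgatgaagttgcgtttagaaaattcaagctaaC
Where reads of such stretches go depends on 1 or 2 bases in 60. By a fixed rule (at least 100 counts and over 8 times the next tumor), 35 genes peaked in a single tumor, at most 4 in any tumor, and 33 of the 35 are annotated pseudogenes. The other retrocopies behaved differently. Rpl32l changed by -1.13 in IFNα4 and -0.96 in IFNα9 tumors, close to Rpl32 with -1.08 and -0.79 (the latter -0.52 without GFP tumor 7). Rps4l was called in no comparison (0.26, -0.17 and -0.43 on the log2 scale).

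Ribosomal proteins outside the naming rule fell with the members. All 5 that were measured, among them Rack1, the scaffold on the small subunit, and Rpl36al, were called lower in both IFNα groups, with median log2 fold changes of -0.83 and -0.74. For Rps27rt, 91.1% of the 50-base stretches, and for Rpl37rt 91.0% of those in protein-coding transcripts, also occurred in other genes, so these values are not separate from reads of other ribosomal protein genes. The proteins of the mitochondrial ribosome, a separate machine that translates mitochondrial messages, fell as well. Of 66 genes, 63 were called lower and 0 higher in either IFNα group (medians -0.69 and -0.57).

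Of 25 translation factor genes, 22 were called lower in IFNα4 tumors and 1 higher (median -0.59), and 22 were called lower in IFNα9 tumors with none higher (median -0.48). Eef1d, a subunit that reloads the elongation factor with GTP, changed by -0.92 and -0.68. Eif2s1, the phosphorylated subunit of initiation factor 2, changed by -0.91 and -0.50. Eef1a1, the most abundant elongation factor and a TOP message, fell from 9136 ± 3066 CPM in GFP (mean ± SD, n = 10) to 5676 in IFNα4 and 6538 in IFNα9 tumors (log2 fold changes -0.69 and -0.48, the latter -0.32 without GFP tumor 7). Eif4a2 was the 1 factor called higher, by 0.28 in IFNα4 tumors. Tpt1, also a TOP message, changed by -0.23 and -0.46.

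Most ribosome assembly genes were also lower in IFNα4 tumors. Of 45 genes, 39 were called lower and 2 higher in IFNα4 tumors (median -0.53), and 26 lower and 2 higher in IFNα9 tumors (median -0.32). Scaled by library totals, the IFNα9 counts were 21 lower and 5 higher (median -0.20). Relative to IFNα4 tumors, 14 of the 45 were called higher in IFNα9 tumors and 0 lower, beside 2 of the 68 core members and 10.5% of all genes. Without GFP tumor 7 the count was again 14 of the 45, and that of the core members was 8 of 68, beside 2043 of all 15926 genes. The difference between these sets was not tested. Nucleophosmin (Npm1), a nucleolar chaperone, changed by -1.15 in IFNα4 and -0.54 in IFNα9 tumors (the latter -0.36 without GFP tumor 7) and was 0.60 higher in the latter (edgeR adjusted p = 0.00311). Nucleolin (Ncl) changed by -0.59 in IFNα4 tumors, was not called in IFNα9 tumors (-0.11) and was 0.48 higher there than in IFNα4 tumors (edgeR adjusted p = 0.00138). Nhp2, a protein of the particles that guide RNA pseudouridylation, changed by -1.35 and -1.07. Ddx10 (0.22 and 0.43) and Gnl2 (0.16 and 0.28) were called higher in both IFNα groups, and the IFNα4 call of Ddx10 was lost without GFP tumor 7 (0.20, edgeR adjusted p = 0.0724). Of 11 RNA polymerase I genes, 5 were called lower and 1 higher in IFNα4 tumors (median -0.14), 4 lower and 1 higher in IFNα9 tumors (median -0.10). With 34.1% and 28.9% of all genes called lower, nothing particular to this list is read from its counts. The largest fall was that of Polr1d (-0.85 and -0.78), and Taf1a rose (0.44 and 0.37).

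The counts of the next 3 lists stand beside 34.1% of all genes called lower and 31.3% higher in IFNα4 tumors, and 28.9% and 26.9% in IFNα9 tumors, and nothing particular to these lists is read from them. Of 14 genes of the mTOR and TOP pathway, 3 were called lower and 1 higher in IFNα4 tumors and 4 lower and 2 higher in IFNα9 tumors, with medians of -0.05 and 0.01. The 1 called higher in IFNα4 tumors, Tial1 (0.18), was not called without GFP tumor 7. Scaled by library totals, 3 were called higher and 3 lower in IFNα4 tumors and 5 higher and 2 lower in IFNα9 tumors, so the balance of the calls depended on the scaling. Larp1 changed by 0.12 (not called) and 0.23. Eif4ebp1, a translational repressor that mTOR inactivates, changed by -0.57 in both. Cnbp, which binds TOP messages, changed by -0.43 and -0.40. Myc fell from 74.4 CPM in GFP to 49.2 in IFNα4 and 51.5 in IFNα9 tumors (log2 fold changes -0.60 and -0.53), and of 9 genes of its network 4 were called lower and 2 higher in IFNα4 tumors and 2 each way in IFNα9 tumors. Mycn changed by -1.52 in IFNα4 tumors, and Mxd1, a Myc antagonist, rose by 1.37 and 0.67. Of 10 genes that report on p53, which free ribosomal proteins can activate through Mdm2, 5 were called higher and 3 lower in IFNα4 tumors and 2 higher and 1 lower in IFNα9 tumors. Without GFP tumor 7 these counts were 5 higher and 1 lower, and 3 higher and 0 lower. Scaled by library totals they were 5 higher and 1 lower, and 5 higher and 0 lower. Eda2r rose by 1.19 in IFNα4 tumors, and its log2 difference between IFNα9 and IFNα4 tumors was -0.91.

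Some lists of marker genes of cell types and of division were lower and others higher in the IFNα tumors. Counts against GFP tumors in this and the next paragraph stand beside 34.1% of all genes called lower and 31.3% higher in IFNα4 tumors. These shares were 28.9% and 26.9% in IFNα9 tumors. Of 7 melanocyte genes listed, 3 were in the counts, Mitf, Tyr and Tyrp1, and all 3 were called lower in both IFNα groups. Their summed level was 7224 to 22850 CPM in GFP, 2160 to 3635 in IFNα4 and 3371 to 8928 in IFNα9 tumors. All 8 proliferation genes were called lower in IFNα4 tumors and 7 in IFNα9 tumors, with sums of 1402 to 3342, 625 to 808 and 857 to 1703 CPM. All 5 leukocyte genes were called higher in both, with sums of 158 to 529, 854 to 1764 and 611 to 1183 CPM. All 7 genes of T and NK cells were called higher too, with sums of 7.50 to 26.5, 86.8 to 200.1 and 66.9 to 165 CPM, and none of the listed markers that were in the counts was at 0 in every tumor.

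Between the IFNα groups, 7 of the 8 proliferation genes (median log2 difference 0.85) and 2 of the 3 melanocyte genes (0.41) were called higher in IFNα9 than in IFNα4 tumors, where the core members had a median of 0.10. This was so for 10.5% of all genes. GFP tumor 7, with the highest ribosomal protein share, had a melanocyte sum of 22850 CPM and a leukocyte sum of 158 CPM. The 4 erythroid genes were called lower in both IFNα groups (medians -1.89 and -2.18). Of 5 endothelial genes 3 were called lower in each and 1 higher in IFNα4 tumors. Of 5 macrophage genes 2 were called higher in each (2 higher and 3 lower in IFNα4 tumors and 1 higher in IFNα9 tumors without GFP tumor 7). Of 4 fibroblast genes 1 was called higher in each, and of 3 keratinocyte genes 2 in IFNα4 tumors and 0 in IFNα9 tumors. Several of these counts lie near the shares of all genes, and no change of these cell types is read from them. Of 4 B cell genes 1 passed the minimum, and it was not called. The part of cell composition and of cell division in the fall of the ribosomal protein genes was not tested.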

How the data were processed

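RNA was extracted from whole tumors with TRIzol and sequenced as stranded, single-end reads of 50 bases. The deposited file holds raw counts per gene, which the authors made with HISAT2 2.0.4 and summarizeOverlaps. The labels name mm10 and the methods mm11, and the treatment of reads with several matches is not given in the sources used here. Symbols and coordinates came from GENCODE M21 (GRCm38) and matched 39495 of 39676 identifiers. Genes averaging 10 or more counts entered 1 edgeR 4.0.16 quasi-likelihood fit (R 4.3.3) with TMM scaling and no covariate, and calls used a Benjamini-Hochberg adjusted p under 0.05. It was tested on simulated data.

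Members and lists were chosen with earlier results of these data known. Genes named by rule were the 5 called members with the highest and the 5 with the lowest change per comparison, the paralogs with their counterparts, the stalk genes, and Rpsa, Rps3, Rps6, Rps19, Rps25, Rps27a, Rpl5, Rpl11, Rpl13a, Rpl38 and Rpl41. Outside the members they were listed relatives and at most 2 genes per pathway list. Rpl23a, Rpl24, Rpl26, Rpl32, Rpl32l, Rps3a1, Ddx10, Gnl2, Eif4a2, Tial1 and Taf1a were, for some comparisons, named after their values were seen. Alternatives were DESeq2 1.42.0, 4 other scalings, other filters, fits of only the compared groups, a change of at least 1.2-fold, a replicate block, leaving out members with shared sequence, and each tumor left out in turn. Leaving out annotated pseudogenes was added after seeing the data. Nothing in the labels says that the 10 tumors of a group came from separate experiments. Some genes that enter the counts and medians are not reported here by name or drawn where genes are labelled.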

Additional observations from a re-analysis of the deposited data

Results flagged for a closer look

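In 14 of 111 groups of 10 tumors checked (37 measures), the highest or lowest tumor stood further from its nearest neighbour, as a share of the group's range, than Dixon's critical value allows. Chance flags about 5% of groups, but the measures come from the same tumors and move together. The flags are therefore not independent, and their number was not tested against that share. GFP tumor 7 was the high tumor in 8 of them: Rpl13a (0.48), Rpl5 (0.528), Rpl7 (0.538), Rps25 (0.629), Rps27l (0.603), Rps3a3 (0.662), Rps6 (0.543) and the ribosomal protein share of counts (0.468). IFNα9 tumor 3 was the high tumor for Rps3a2 (0.894) and Rps3a3 (0.913). The low tumors were IFNα9 tumor 8 for Rpl22l1 (0.487), IFNα9 tumor 2 for Rpl4 (0.584), IFNα9 tumor 10 for Rps4l (0.513) and IFNα4 tumor 3 for Rps15 (0.521).

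By edgeR's test of IFNα9 against IFNα4 tumors, 5 of the 76 members were called, where 10.5% of all genes were called higher and 7.25% lower. The log2 differences were -1.0 for Rpl3l, 0.24 for Rpl4, 0.47 for Rpl13a, 4.56 for Rps3a3 and 8.39 for Rps3a2, the last pair through 1 tumor. The calls of Rpl4 and Rpl13a were lost when a change of at least 1.2-fold was asked for. Rpl3l moved with muscle genes, and their part was not tested.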

How the results depend on the processing

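The fall of the ribosomal protein genes kept its direction under every alternative run, with medians over the members of -0.88 to -0.63 (IFNα4 against GFP) and -0.79 to -0.54 (IFNα9 against GFP) when single tumors were left out. With members left out that share over 20% of the 50-base stretches of all their transcripts, 37 remained, and 34 and 35 were called lower. Some of the 37 share more in their protein-coding transcripts alone. Examples are Rpl11 (54.0%, and 17.7% over all transcripts) and Rpl22l1 (51.4% and 12.8%), so reads of kept members can also be ambiguous. For IFNα9 against GFP, the count called higher, 2, became 0 with DESeq2, with the replicate block, without shared members and without annotated pseudogenes, and 1 with edgeR's own filter, and it was 0 to 2 over single tumors left out, 0 without IFNα9 tumor 3. For IFNα9 against IFNα4, the count called higher, 4, became 2 with DESeq2, with a change of at least 1.2-fold, with the replicate block and without pseudogenes, 1 without shared members and 13 with the 20 IFNα tumors alone. It was 2 to 10 over single tumors left out (10 without GFP tumor 7, 2 without IFNα9 tumor 3), and the count called lower was 1 to 2. Over all 15926 genes the count called higher was 1679 in the main fit, 2363 with the 20 IFNα tumors alone and 2043 without GFP tumor 7. Reversed values were those of Rps3a2 and Rps3a3. Against GFP they were -0.66 and -1.47 with DESeq2 and -0.53 and -1.56 without IFNα9 tumor 3, and Rps3a3 was -0.68 with the replicate block. Against IFNα4 they were -0.49 and -0.64 with DESeq2 and -0.39 and -0.71 without that tumor. Over single tumors left out, the highest values of the pair were 8.87 and 4.00 against GFP and 8.56 and 4.73 against IFNα4. The cause of the other moves was not tested. Of 2958 values for named genes, 2934 kept direction and call, 15 lost the call and 9 reversed.

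The replicate numbers did not pair the tumors: of 30 pairs, 4 had a correlation of deviations over 0.1 (median -0.05), and 2 tumors correlated best with their own number. With the replicate block, 71 members were called lower and 1 higher in IFNα4 tumors, 72 lower and 0 higher in IFNα9 tumors.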
